A study of Mus musculus with 6 samples.

Results

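Semaphorins, their plexin receptors and their neuropilin co-receptors were examined after methamphetamine in microglia, which are the brain's own macrophages. The members were all rows of the authors' deposited table whose symbol names a semaphorin of classes 3 to 7, a plexin, Nrp1, Nrp2 or a plexin domain containing protein (Plxdc1 and Plxdc2). There were 33 such genes of 23930, and they are the 33 genes of that name pattern in the RefSeq mouse annotation. All mice were adult C57BL/6. In 3 of them (Meth) methamphetamine, a psychostimulant that releases monoamines, was injected 4 times at 5 mg/kg with 2 h between injections, and the other 3 (Saline) received 4 saline injections on the same schedule. After perfusion, brain cells carrying CD11b, little CD45 and no CD206 were sorted, and their RNA was read with an amplicon panel that amplifies a short stretch of each gene with its own primers. The authors' deposited table gives 1 log2 average per group, a signed fold, a p-value and an adjusted p-value (false discovery rate, FDR) for each gene, but nothing per mouse, so neither a spread between mice nor an overlap of the groups can be read from it. The members were chosen by symbol alone, with no threshold on a value, but the family was proposed with the deposited averages, folds and p-values in view, so its values are a description and the p-values beside them are the authors' own. A p-value before adjustment is called nominal, and in a pair of values joined by "against" the first is Meth. Each primer pair has its own yield, so averages of different genes are not a ratio of their transcripts.

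Semaphorins are extracellular guidance cues that share the sema domain, first studied for repelling growing axons and now known in immune cells as well. Class 3 members are secreted and, with few exceptions, signal through a neuropilin bound to a class A plexin, while the membrane-bound classes bind plexins directly. The plexin tail holds a GTPase-activating domain that switches off small GTPases of the Rap and Ras family, which lowers integrin adhesion, and plexin signalling also remodels actin. In macrophages and microglia, plexins have been linked to motility, to the spacing of cells around wounds and, through a complex of plexin-A1 with Trem2 and Tyrobp, to activation.

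The bases before the start sites of 3 class 4 semaphorins are shown as their sequence context. Sema4d and Sema4b, both lower in Meth, are the members above the assay's floor with the smallest p-values. Sema4g is listed higher by as large a fold as Sema4d is lower. Plxna1 and Nrp1, not shown in this way, had larger folds (9.17 and 3.13 lower) than Sema4g (2.80 higher). Their nominal p-values, 0.0668 and 0.0673 by the authors' deposited table, were also smaller than the 0.111 of Sema4g. RefSeq (GRCm38.p6) lists 3 start sites for Sema4d, 2 for Sema4b and 1 for Sema4g, and the 250 bases upstream of the first listed start of each are printed 5' to 3' on the gene's strand. They lie at chr13:51748811-51749060 on the minus strand for Sema4d, chr7:80186620-80186869 on the plus strand for Sema4b and chr19:44989094-44989343 on the plus strand for Sema4g. Capitals mark the letters GAGGAA, the core recognised by PU.1 (the lineage factor of macrophages), and GGGCGG, the GC box, each on either strand.
Sema4d: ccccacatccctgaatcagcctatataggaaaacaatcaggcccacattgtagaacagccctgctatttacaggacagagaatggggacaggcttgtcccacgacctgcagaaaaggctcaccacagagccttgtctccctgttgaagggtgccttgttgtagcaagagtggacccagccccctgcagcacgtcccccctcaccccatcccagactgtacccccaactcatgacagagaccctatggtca
Sema4b: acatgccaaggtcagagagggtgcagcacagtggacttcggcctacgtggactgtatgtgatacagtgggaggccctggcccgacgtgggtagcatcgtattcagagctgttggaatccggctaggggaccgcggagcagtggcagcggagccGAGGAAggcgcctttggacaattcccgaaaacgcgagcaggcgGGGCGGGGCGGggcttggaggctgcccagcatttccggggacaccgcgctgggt
Sema4g: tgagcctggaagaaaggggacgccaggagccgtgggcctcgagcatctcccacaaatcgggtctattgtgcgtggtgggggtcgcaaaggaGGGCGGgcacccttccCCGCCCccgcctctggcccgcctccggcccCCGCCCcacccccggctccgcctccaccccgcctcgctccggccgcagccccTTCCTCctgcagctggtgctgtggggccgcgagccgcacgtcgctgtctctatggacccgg
The Sema4d stretch held 2 CG dinucleotides and neither motif, against 20 CG dinucleotides in Sema4b and 24 in Sema4g, and the median over all listed promoters was 6. The other listed starts of Sema4d held 1 and 2 CG dinucleotides, and the third held 1 GGGCGG, so the absence of that motif depends on the start chosen. Sema4b held 1 GAGGAA and 2 overlapping GGGCGG, and Sema4g held 1 and 3. Over 32851 promoter stretches of that length, 23.3% held GAGGAA and 32.7% held GGGCGG. Of the 27 stretches listed for 16 of the members described below, 10 held GAGGAA and 21 held GGGCGG. The same search found CACGTG (the E-box) in 2 of the 27 and in 6.02% of all, TGACG (the core of the cyclic AMP response element) in 0 of the 27 and in 17.8% of all, and TATAAA in 0 of the 27 and in 12.4% of all. Which start site microglia use was not measured, and a match of letters is not a binding site.

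The labelled cell type was checked against 13 microglial markers, all of which were listed at a log2 average of 1 or above, with Csf1r at 12.23 against 12.29 and P2ry12 at 9.20 in both by the authors' deposited table. Of the 13, 8 were listed lower and 4 higher in Meth (median difference -0.60), and those with a nominal p under 0.05 by the authors' deposited table were Gpr34 (10.24 against 11.01), Olfml3 (9.08 against 11.54) and Tmem119 (10.85 against 11.75), all lower. Summed on the linear scale, these markers came to 32320 RPM (library-scaled reads) with Meth and 55565 with Saline. Endothelial markers summed to 146 and 162 RPM over 11 listed genes (5 higher, 6 lower), with Pecam1 and Slc2a1 as the larger part, and Cldn5, the junction protein that defines brain endothelium, was near 0 (0.08 and 0.07 by the authors' deposited table). Oligodendrocyte lineage markers summed to 91.2 RPM with Meth and 110 with Saline over 11 genes (7 higher, 3 lower), with Olig2 at 0. Cnp, the largest of them in Saline, was listed at 5.04 against 6.37 by the authors' deposited table. Mbp (4.64 against 3.59) and Mag (4.83 against 3.67) were listed higher. Neuron markers summed to 12.2 RPM with Meth and 7.42 with Saline over 10 genes (7 higher, 2 lower). Astrocyte markers summed to 62.6 RPM with Meth and 154 with Saline over 8 genes (5 higher, 3 lower). Slc1a3, the largest of them in both groups, was listed at 5.21 against 7.02 by the authors' deposited table. Monocyte and neutrophil markers summed to 3.24 and 7.04 RPM over 7 genes (2 higher, 4 lower), with Ly6g at 0. Plac8, the largest of them in Saline, was listed at 0.36 against 2.15 by the authors' deposited table. The sums of microglial, endothelial, oligodendrocyte lineage, astrocyte, and monocyte and neutrophil markers were thus lower in Meth, and the neuron sum was higher. The averages of Sema4d, Sema4b, Plxna1 and Nrp1 were lower as well, and the part of any of these cells in those differences was not tested. Border-associated macrophage markers summed to 1010 RPM with Meth and 589 with Saline over 8 genes (4 higher, 2 lower), with Lyve1 and Ms4a7 at 0. Most of it was Stab1 (9.94 against 9.15, nominal p = 0.0490 by the authors' deposited table), and Mrc1, which encodes the CD206 that the sort excluded, was listed at 4.80 against 4.44 by the authors' deposited table. With RNA from bulk sorted cells, fewer cells of a type and less RNA per cell cannot be told apart.

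No member passed the threshold used here, a deposited adjusted p under 0.05. The authors' deposited table had an adjusted p under 0.05 for 0 of the 33 members, where 2.24% of all 23930 genes were called, and the lowest adjusted p of a member was 0.182, at Sema3a. At a log2 average of 1 or above in at least 1 group, 0.357% of genes were called, and 0 of 21 members. By the nominal p, 3 members lay under 0.05 by the authors' deposited table: Sema4d and Sema4b, both lower in Meth, and Sema3a, higher in Meth and near 0. Of the 33 members, 21 reached a log2 average of 1 in at least 1 group (12 listed higher in Meth, 9 lower), and their median difference, Meth minus Saline, was 0.08 against 0.02 over the 10375 genes at that level. Among the 21 members, 2 (9.52%) had a nominal p under 0.05 by the authors' deposited table, against 14.7% of all genes at that level, a share under the background. Both were lower in Meth, where 8.19% of genes at that level had such a p, and 0 were higher, where 6.46% did. A deposited fold of 2 or more was listed for 6 of the 21 (28.6%), where 17.4% of genes at that level had such a fold. These were 4 lower (background 10.8%) and 2 higher (background 6.66%).

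**Figure D1:**
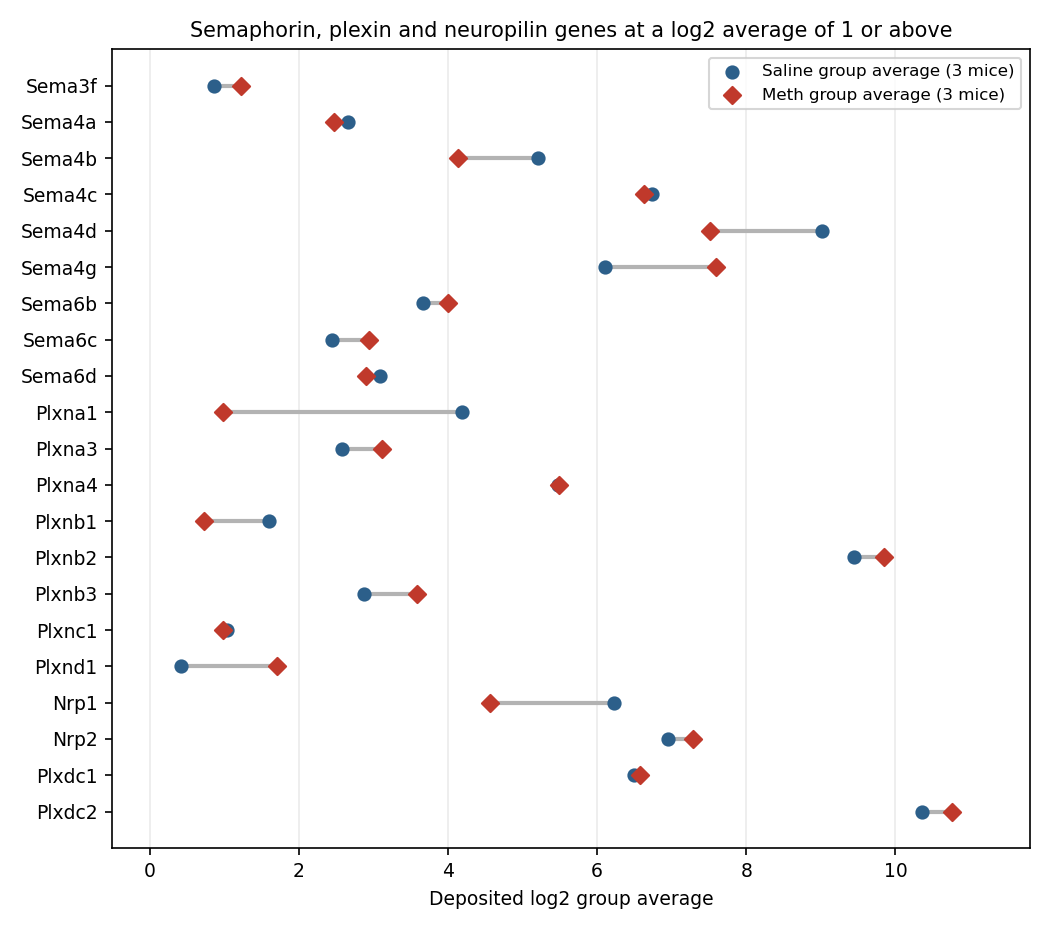
Deposited log2 group averages of the 21 members at 1 or above in either group, on the horizontal axis, ordered by role from secreted semaphorins to plexin domain containing proteins. Circles are Saline and diamonds Meth, each the authors' average of 3 mice with no error available, and the longest line belongs to Plxna1 (0.99 in Meth, 4.19 in Saline).

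Class 4 semaphorins are transmembrane proteins that immune cells use as surface ligands, and they held the ligands with folds of 2 or more. Sema4d (CD100), which on T cells binds CD72 of B cells and elsewhere binds plexin-B1 and plexin-B2, had a log2 average of 7.52 with Meth and 9.02 with Saline by the authors' deposited table. The deposited fold was 2.81 lower in Meth (nominal p = 0.0292, adjusted p = 0.403 by the authors' deposited table), and 4.41% of genes at a log2 average of 1 or above were listed at least as far down. Sema4b stood at 4.14 against 5.21 by the authors' deposited table, a fold of 2.09 lower (nominal p = 0.0356, adjusted p = 0.439). Both were lower in Meth, and neither passed the adjusted threshold.

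Sema4g, a class 4 member that binds plexin-B2, was listed in the other direction, at 7.59 with Meth and 6.10 with Saline by the authors' deposited table. Its fold, 2.80 higher in Meth, was as large as that of Sema4d, but its nominal p was 0.111 by the authors' deposited table, and 1.36% of genes at 1 or above were at least as far up. The pair of class 4 genes with the largest folds was thus listed in opposite directions, and the difference between their responses could not be tested without values per mouse.

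The remaining class 4 members were close between the groups. Sema4c, a further ligand of plexin-B2, stood at 6.63 with Meth and 6.74 with Saline by the authors' deposited table (nominal p = 0.545). Sema4a, which in mouse binds Timd2 (Tim-2) on T cells and plexin-D1 on endothelium, stood at 2.47 against 2.66 by the authors' deposited table (nominal p = 0.647). Sema4f lay near 0, at 0.12 against 0.15 by the authors' deposited table. Of the 5 class 4 members at 1 or above, 4 were listed lower and 1 higher, with a median difference of -0.19.

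The transmembrane class 6 gave small differences. Sema6b, a ligand of plexin-A4, stood at 4.00 with Meth and 3.66 with Saline (nominal p = 0.662), and Sema6c at 2.94 against 2.44 (nominal p = 0.151) by the authors' deposited table. Sema6d, the ligand of plexin-A1 on dendritic cells and osteoclasts, stood at 2.90 against 3.09 by the authors' deposited table (nominal p = 0.725). Sema6a was near 0 (0.02 against 0.18), as were the class 5 members Sema5a (0.00 against 0.18) and Sema5b (0.09 against -0.01) by the authors' deposited table. Sema7a, the GPI-anchored semaphorin that binds integrin beta 1 and plexin-C1, stood at 0.30 against 0.29 by the authors' deposited table.

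Secreted semaphorins were at the floor of the assay. Of the 7 class 3 genes, Sema3f, the ligand of neuropilin-2, was the single one to reach 1, at 1.23 with Meth and 0.87 with Saline by the authors' deposited table (nominal p = 0.418). Sema3d and Sema3g were at 0 in both groups, and Sema3b, Sema3c and Sema3e were at or under 0.15 in both, by the authors' deposited table. Sema3a, the founding collapse-inducing cue that signals through neuropilin-1, had 0.22 with Meth and -0.07 with Saline by the authors' deposited table, with a nominal p of 0.0059 and an adjusted p of 0.182. An average below 0 cannot be a plain mean of log2(RPM + 1), so these averages carry an adjustment that the sources used here do not give. Saline averages below 0 were listed for 1425 genes, of which 54.6% had a nominal p under 0.05 by the authors' deposited table, against 10.1% of all genes, and Sema3a is one of these genes. In all, 12 members lay under 1 in both groups, at 0.45 or less, with differences from -0.18 to 0.29 on the log2 scale.

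**Figure D2:**
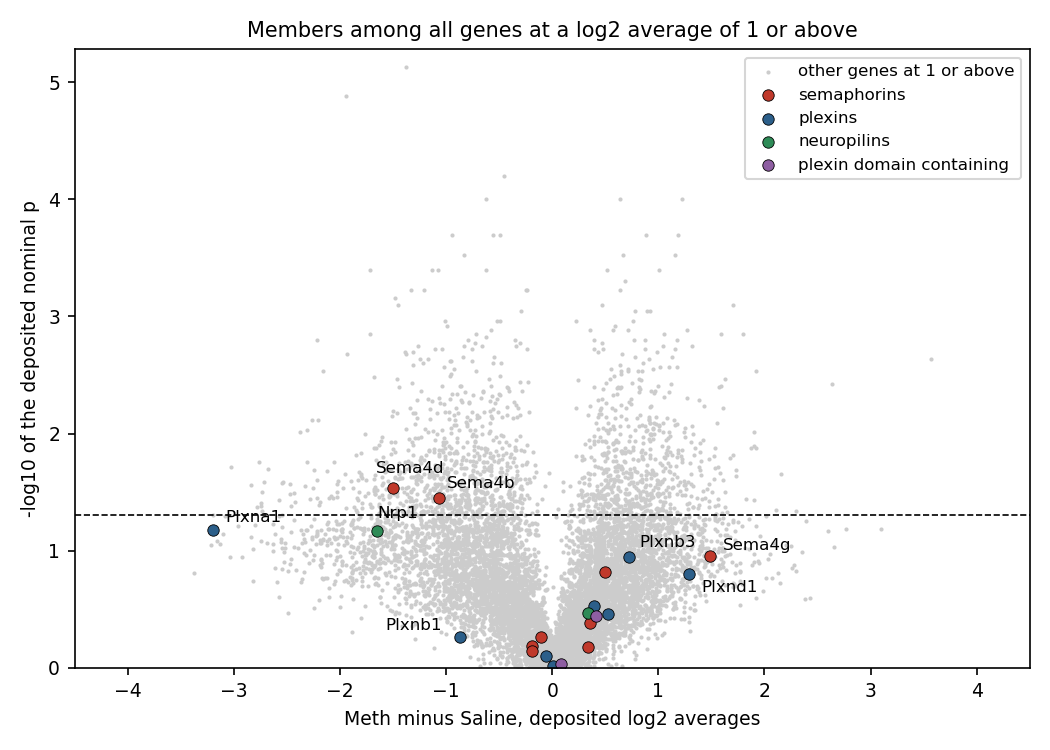
Difference of the deposited log2 averages (Meth minus Saline, horizontal) against -log10 of the deposited nominal p (vertical) for genes at 1 or above in either group, with the 21 members coloured by role and the dashed line at p of 0.05. Sema4d and Sema4b are the members above the line, while Plxna1 has the largest difference (-3.20) and lies under it.

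Among the class A plexins, Plxna1 had the largest difference of the family. Plxna1, which forms the complex with Trem2 and Tyrobp in dendritic cells and osteoclasts, stood at 0.99 with Meth and 4.19 with Saline by the authors' deposited table. The deposited fold was 9.17 lower in Meth, with a nominal p of 0.0668 and an adjusted p of 0.528 by the authors' deposited table, so a difference of this size did not pass although just 0.0386% of genes at 1 or above were listed as far down. Without the pseudocount of 1, the ratio of the averages of Plxna1 was 17.5. Of its paralogues, Plxna4, a receptor of Sema3a and class 6 semaphorins, stood at 5.49 against 5.48, and Plxna3, which pairs with neuropilin-2 for Sema3f, at 3.11 against 2.58 (nominal p = 0.347) by the authors' deposited table. Plxna2 was near 0 in both (0.32 against 0.45 by the authors' deposited table). The antisense gene Plxna4os1 was listed at 4.23 against 4.20 by the authors' deposited table, and since the sources used here do not say whether reads were assigned by strand, Plxna4 and this gene may share reads.

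Class B plexins bind class 4 semaphorins. Plxnb2, the plexin known for its part in macrophage motility and wound corralling, stood at 9.84 with Meth and 9.45 with Saline by the authors' deposited table (1.32-fold higher, nominal p = 0.294). Plxnb1, the high-affinity receptor of Sema4d, stood at 0.73 against 1.60 by the authors' deposited table (1.83-fold lower, nominal p = 0.541), and without the pseudocount its ratio was 3.08. Plxnb3, a receptor of Sema5a, was listed 1.65-fold higher, at 3.59 against 2.87, by the authors' deposited table (nominal p = 0.113). None of the class B plexins had a nominal p under 0.05 by the authors' deposited table.

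Plxnc1, the receptor of Sema7a, stood at 0.98 with Meth and 1.04 with Saline by the authors' deposited table. Plxnd1, the receptor of Sema3e with a main role in vessels, stood at 1.71 against 0.42 by the authors' deposited table, a fold of 2.43 higher in Meth (nominal p = 0.157). Without the pseudocount, the ratio for Plxnd1 was 6.72, because its Saline average is close to 0. The endothelial marker sum was 146 RPM with Meth and 162 with Saline, and the part of endothelial RNA in the Plxnd1 difference was not tested.

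The neuropilins were listed in opposite directions. Nrp1, the co-receptor of Sema3a and of vascular endothelial growth factor (VEGF), stood at 4.57 with Meth and 6.22 with Saline by the authors' deposited table, a fold of 3.13 lower (nominal p = 0.0673, adjusted p = 0.529). Nrp2, the co-receptor of Sema3f, stood at 7.29 against 6.95 by the authors' deposited table (1.26-fold higher, nominal p = 0.342). Endothelium expresses Nrp1 as well, and of its 11 listed markers 5 were higher and 6 lower in Meth by the authors' deposited table. At 1 or above were 4 of them, 3 lower and 1 higher (median difference -0.925). They were Cdh5 (1.31 against 3.11, nominal p = 0.0231, adjusted p = 0.380), Kdr (0.61 against 2.27), Pecam1 (6.25 against 6.44) and Slc2a1 (6.09 against 6.01) by the authors' deposited table. Cldn5 was near 0 in both groups. The part of endothelial RNA in the Nrp1 difference was not tested.

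Plxdc1 and Plxdc2 are transmembrane proteins described as receptors of pigment epithelium-derived factor (Serpinf1) that share a short domain with plexins and are not semaphorin receptors. Plxdc2 had the highest average of the family, at 10.76 with Meth and 10.35 with Saline by the authors' deposited table (1.32-fold higher, nominal p = 0.359). Plxdc1 stood at 6.57 against 6.49 (nominal p = 0.936), and the reported ligands Serpinf1 at 7.56 against 7.52 and Nid2 (nidogen-2) at 5.63 against 5.79, by the authors' deposited table. These members, with Plxnb2, Nrp2, Sema4c and Plxna4, form the part of the family with log2 averages of 5 or more and folds under 1.5 by the authors' deposited table.

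Ligands and their receptors can be set side by side. Sema4d was listed 2.81-fold lower by the authors' deposited table, while of its receptors Plxnb2 was listed 1.32-fold higher, Plxnb1 1.83-fold lower and Cd72 2.67-fold higher. Sema6d differed by 1.13-fold by the authors' deposited table, beside the 9.17-fold difference of its receptor Plxna1 (nominal p = 0.0668). The partners of that receptor, Trem2 (10.44 against 9.99, nominal p = 0.203) and Tyrobp (10.68 against 10.08, nominal p = 0.186), were listed higher by the authors' deposited table. For Sema7a, near 0 itself, the authors' deposited table listed the receptor Itgb1 at 6.62 against 8.28 (3.15-fold lower, nominal p = 0.0304) and Plxnc1 with little difference. For Nrp1, its VEGF ligand Vegfa was listed at 1.14 against 0.86 and the VEGF receptor Kdr at 0.61 against 2.27 (nominal p = 0.187) by the authors' deposited table.

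The other genes of the pathway were taken from lists by role. Of 20 further receptors and co-receptors, 10 reached 1, with 8 listed higher and 2 lower and a median difference of 0.38. Cd72, an inhibitory lectin-like receptor of B cells and macrophages, was listed at 5.04 against 3.62 (nominal p = 0.0113, adjusted p = 0.272) by the authors' deposited table and, with Itgb1, was among the 2 of these 10 with a nominal p under 0.05 (background 14.7%). The single member of that list called at an adjusted p under 0.05, Mst1r, was near 0 (0.07 against -0.03 by the authors' deposited table). Of the ligands and partners of neuropilins, 7 of 12 listed genes reached 1 (4 higher, 3 lower, median difference 0.28). Of the 7, 3 had a nominal p under 0.05 by the authors' deposited table, where 14.7% of genes at 1 or above did. All 3 were higher in Meth, a direction in which 6.46% of genes at 1 or above had such a p. These were Lgals1 (galectin-1) at 3.34 against 1.71 (nominal p = 0.0034), Gipc1, the adaptor that binds the neuropilin-1 tail, at 7.23 against 6.64 (nominal p = 0.0154), and Vegfb at 5.67 against 5.05 (nominal p = 0.0295) by the authors' deposited table.

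Small GTPases and their regulators held the pathway's called genes above the floor. Of 26 listed genes, 23 reached 1 (11 higher, 12 lower, median difference -0.41), and 3 had an adjusted p under 0.05 by the authors' deposited table, where 2.24% of all genes did. Of these, 2 were among the 23 genes at 1 or above, a level at which 0.357% of all genes were called. Rap1a, a Rap GTPase of the kind that plexins switch off and an activator of integrins, fell from 7.23 in Saline to 6.29 in Meth by the authors' deposited table (1.92-fold, adjusted p = 0.0113). Mras, a Ras family substrate of plexins, rose from 5.51 to 6.15 by the authors' deposited table (1.56-fold, adjusted p = 0.0292). The third, Rhod, was at 0.20 against -0.10 by the authors' deposited table, and 33 genes, Rhod among them, carry this same pair of averages and the same p. Rap1b was listed at 7.05 against 8.62 (2.97-fold lower, nominal p = 0.0210, adjusted p = 0.366) and Rac2, the Rac GTPase of blood cells, at 4.09 against 5.11 (nominal p = 0.0110, adjusted p = 0.267) by the authors' deposited table. With the deposited p-values adjusted over the genes at 1 or above alone, Rap1a had an adjusted p of 0.189 and Mras 0.239, so neither call held.

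Downstream effectors held no called gene. Of 30 listed effectors, 25 reached 1 (11 higher, 14 lower, median -0.20), 0 were called at an adjusted p under 0.05 by the authors' deposited table, and 3 had a nominal p under 0.05 (14.7% of genes at 1 or above did). A fold of 2 or more was listed for 7 of the 25 lower, where 10.8% of genes at 1 or above had such a fold, and for 1 higher, where 6.66% did. Limk1, the kinase that inactivates cofilin, stood at 7.53 with Meth and 7.10 with Saline (nominal p = 0.0072, adjusted p = 0.206) by the authors' deposited table. The related tyrosine kinases Fer (3.10 against 4.77, nominal p = 0.0285) and Fes (0.54 against 1.63, nominal p = 0.0227) were listed lower by the authors' deposited table. Of the proteases, 8 of 12 reached 1, and 2 had a nominal p under 0.05 by the authors' deposited table, against the same 14.7%. They were Adam10, a sheddase of many surface proteins, at 6.32 against 8.79 (5.56-fold lower, nominal p = 0.0330, adjusted p = 0.427), and Mmp14, which sheds Sema4D from human tumour cells, at 6.76 against 6.09 (1.59-fold higher, nominal p = 0.0144, adjusted p = 0.312) by the authors' deposited table. Adam17, the sheddase that releases TNF, stood at 5.87 against 6.75 by the authors' deposited table (nominal p = 0.0851).

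**Figure D3:**
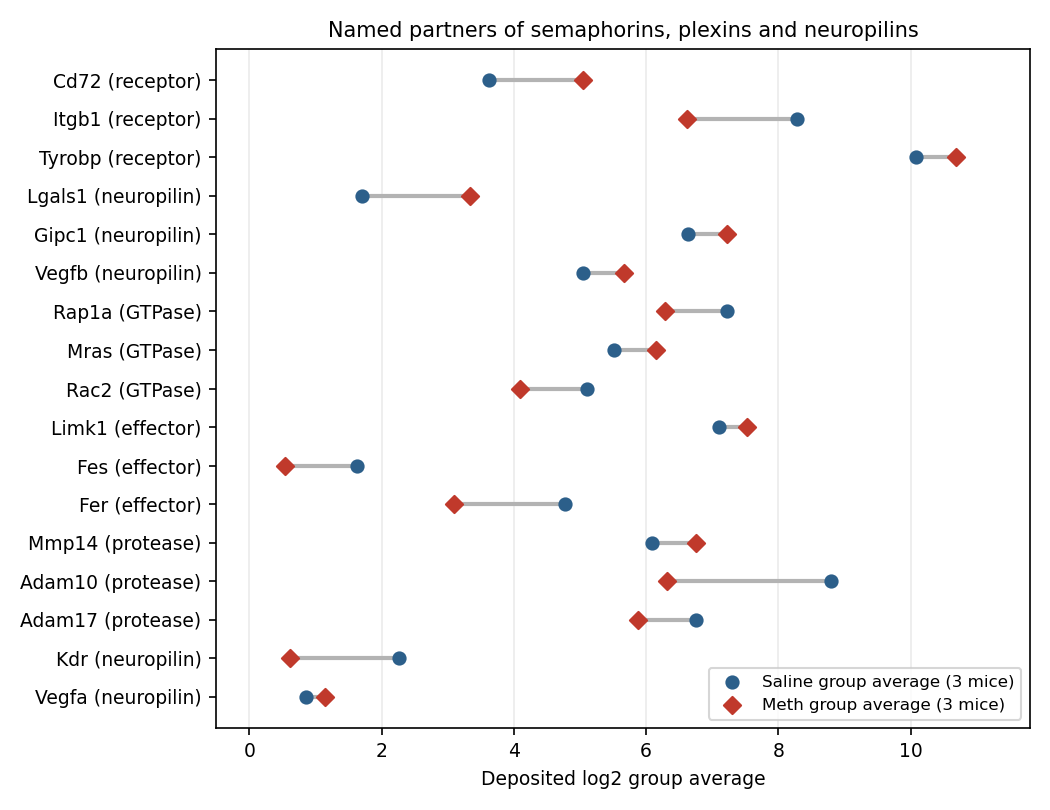
Deposited log2 group averages (horizontal) of the partners named by list, with the role of each in brackets; circles are Saline and diamonds Meth, the authors' averages of 3 mice with no error available. Rap1a and Mras, with opposite directions, are the partners shown with an adjusted p under 0.05, and Adam10 has the longest line (6.32 in Meth, 8.79 in Saline).

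Other guidance families were read in the same table. Of the slits, robos and their GTPase-activating partners, 2 of 9 reached 1, Srgap2 (9.41 against 9.57) and Srgap3 (2.30 against 2.57) by the authors' deposited table. Of netrins, repulsive guidance molecules and their receptors, 3 of 15 did, Rgmb (7.53 against 8.04), Neo1 (4.19 against 4.44) and Unc5a (2.44 against 2.32), and the single called gene, Dcc, was near 0 (0.13 against -0.07) by the authors' deposited table. Of the ephrins and Eph receptors, 7 of 22 reached 1 (5 lower, 2 higher), and 0 of the list were called. Among these 7, 3 had a nominal p under 0.05 by the authors' deposited table, where 14.7% of genes at 1 or above did. All 3 were lower in Meth, a direction in which 8.19% of genes at 1 or above had such a p. They were Epha1 at 3.26 against 5.05 (nominal p = 0.0428, adjusted p = 0.464), Efnb2 at 2.18 against 2.79 (nominal p = 0.0271, adjusted p = 0.392) and Ephb3 at 3.30 against 3.57 (nominal p = 0.0140, adjusted p = 0.307) by the authors' deposited table. For comparison, 21 of the 33 semaphorin family members reached 1, and all these counts depend on how well each primer pair works.

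Transcripts of the family were GC-rich. The median GC content of the longest transcript was 56.6% over the 21 members at 1 or above and 49.6% over 9965 genes at that level, and the median length was 6217 bases against 3471. Over all these genes the signed difference, Meth minus Saline, rose with GC content (Spearman's rank correlation 0.21, across genes that share libraries and are no replicates). Genes of higher GC content thus tended to be listed higher in Meth, and those of lower GC content lower. Over the 21 members the rank correlation was 0.32. After removal of the GC and length trend, Sema4d had a difference of -1.59, Sema4b of -1.26, Plxna1 of -3.46, Nrp1 of -1.42 and Sema4g of 1.27 on the log2 scale. The panel reads a short amplicon of each gene, whose sequence was not used here, so the GC content and length of the whole transcript are not those of the fragment read, and the part of GC content in the differences was not tested.

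**Figure D4:**
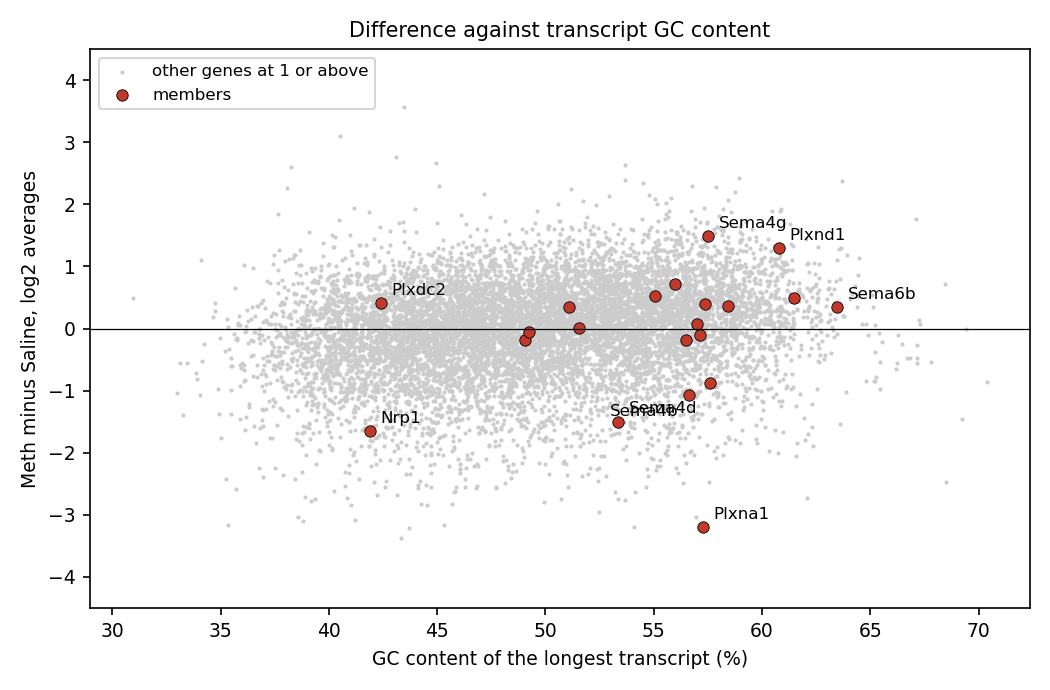
Difference of the deposited log2 averages (Meth minus Saline, vertical) against the GC content of the longest transcript in percent (horizontal) for genes at 1 or above, with the 21 members in red. Most members lie to the right of the median gene (49.6%). The rank correlation over the members was 0.32.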

How the data were processed

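Microglial RNA of 3 Saline and 3 Meth mice was made into AmpliSeq mouse transcriptome libraries and sequenced on an Ion S5XL, per the labels' protocols. The aligner, genome build, counting, normalization and test were not given in the sources used here. Per the file headers, the deposited table of the comparison holds the authors' log2 group averages, a signed fold change score (negative where Saline is higher), a p-value and an FDR adjusted p-value per gene. The linear sums of the averages are 981392 (Meth) and 1012049 (Saline), so the scale is read from the values as log2 of RPM plus a pseudocount of 1. There are no values per mouse, so depth is unknown and no error, interval or replicate check can be given. A fold on this scale understates the change of low genes.

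No test was run here: genes were called at a deposited FDR under 0.05, and nominal p-values under 0.05 are given as a description. Named genes were every member at a log2 average of 1 or above or with a nominal p under 0.05, and of each pathway list up to 3 genes at 1 or above with the smallest p, plus Itgb1, Cd72, Kdr and Vegfa; genes named beside these as pairs, markers or called genes were chosen after their values were seen. Members and lists were chosen with earlier results of these data known. List genes absent from the table, such as Rac1, Rhoa, Arf6 and Cfl1, were not analysed here, and 1 gene of the protease list is not reported here. Promoter stretches come from RefSeq (GRCm38.p6), matched by symbol for 26 of the 33 members. Transcript GC content and length come from GENCODE mouse release M21, matched for 21366 symbols (89.3%) and all 33 members, and their trend was removed as the median over 20 bins of each. Benjamini-Hochberg adjustment and trend removal were tested on simulated data. Python 3.11.15, numpy 2.4.6, pandas 2.3.3 and scipy 1.17.1 were used.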

Additional observations from a re-analysis of the deposited data

How the results depend on the processing

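The count of members with an adjusted p under 0.05 was 0 by the authors' deposited table, with an FDR threshold of 0.1, and after adjustment over the genes at a log2 average of 1 or above, where the lowest value was 0.33. The count with a nominal p under 0.05 stayed at 2 lower with no minimum level, with a minimum of 3 and without the Plxdc genes, and was 0 at a nominal p under 0.01. The count of higher members was 0, and 1 (Sema3a) with no minimum level. The median difference of 0.08 became -0.11 as a mean, -0.016 with the GC content and length trend removed, 0.00 with no minimum level and lay between 0.01 and 0.08 under the other settings; the cause was not tested. Of the 21 members at 1 or above, Plxna4 changed sign when differences were centred on the median gene, Plxna4 and Plxdc1 did with the trend removed, and Plxna1, Plxnb1 and Plxnd1 moved by over 1.5 times with the pseudocount removed. No paired analysis was possible because the table has no values per sample, and leaving out single replicates was not run for the same reason.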
